A study of Drosophila melanogaster with 24 samples.

Results

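RNA-Seq of heads from 20-day-old male AD flies was compared with RNA-Seq of heads from WT males of the same age. AD flies expressed a human amyloid transgene in neurons, and WT flies did not. The libraries were chosen by their sample labels, and they were AD day 20 replicates 1 to 3 and WT day 20 replicates 1 to 3, that is 6 of the 24 libraries of the series. All genes were considered, with most attention to those other than the antimicrobial peptide (AMP) genes. Of 13700 annotated genes listed in at least 1 library, 10479 had enough counts to be tested.

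AD flies came from UAS-Aβ42 crossed to elav-GAL4 (c155), and WT flies came from w1118 crossed to the same driver line, so both groups carried the driver. The elav driver acts in neurons throughout the nervous system. The labels describe the transgene as the human amyloid precursor protein, whereas the methods of the study describe the Aβ42 peptide. Each library was made from pooled heads, and a head sample holds eye, brain, fat body, muscle, and antennal tissue together. In such bulk RNA, fewer cells of a type and less RNA per cell cannot be told apart. The other 18 libraries came from both genotypes at days 3, 10, and 30 post eclosion.

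Secreted and membrane proteins fold in the endoplasmic reticulum (ER). There the chaperone BiP (*Hsc70-3* in the fly) holds unfolded chains, co-chaperones such as *P58IPK* and *Sil1* regulate its ATP cycle, and the oxidase *Ero1L* together with the protein disulfide isomerases forms disulfide bonds. When unfolded protein accumulates, the sensors Ire1, PEK, and Atf6 start the unfolded protein response, which raises the transcripts of many of these helpers. Aβ transgenes in the fly carry a signal peptide in many designs and so pass through this compartment. Heat shock genes serve the corresponding function in the cytosol.

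Total expected counts ran from 13458969 to 26731357 in AD heads (median 14910943) and from 13730914 to 21168175 in WT heads (median 14253766). Replicate 1 of both genotypes came from another processing run than replicates 2 and 3, as shown by the genes that the authors had added to the annotation. Within a genotype, replicate 1 differed from the others far more than these differed from each other, with a chi-square per gene of 214.6 to 270.6 across the runs against 10.7 to 14.9 within run 2. The share of counts from mitochondrially encoded genes was 2.86% and 2.69% in the AD and WT libraries of run 1, and 6.61% to 8.04% in run 2. Values are therefore given per library, as CPM (counts relative to the library total, with TMM scaling between libraries), in the order of replicates 1, 2, and 3, with replicate 1 from run 1. The photoreceptor gene *ninaE* and the neuronal genes *elav* and *nSyb* were abundant in every library, with *nSyb* at 1443, 1303, and 1223 CPM in AD heads and 1461, 1371, and 1439 CPM in WT heads. The gut protease *Jon65Ai* had no counts in any of the 6 libraries, *Jon99Ci* reached at most 0.407 CPM, and the male tract genes *dj* and *Acp36DE* reached at most 0.272 CPM.

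In AD heads 10 genes rose and 0 fell past the threshold, an FDR under 0.05 by edgeR's quasi-likelihood test with an absolute log2 fold change over 1. These are 0.0954% of the tested genes for the higher direction and 0% for the lower. None of the 10 is an AMP gene. They are *w*, *PCNA*, *cv-2*, *Cyp6a2*, *Mp20*, *CG14329*, *Orct2*, *Sil1*, *MFS3*, and *Gadd45*, and in each of them the 3 AD libraries lay above the 3 WT libraries. Such non-overlap held for 5.11% of all tested genes in the higher direction and 3.81% in the lower. At an unadjusted p under 0.05, edgeR gave 350 genes higher and 114 lower, and at a p under 0.001 it gave 41 higher and 1 lower.

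The count of calls depended on single libraries. It was 6 without AD replicate 1, 6 without AD replicate 2, 1 without AD replicate 3, 20 without WT replicate 1, 1 without WT replicate 2, and 1 without WT replicate 3. The 1 gene left in these cases was *w*. With the replicate number as a block, edgeR called 11 genes over the 24 libraries, and 56 genes (49 higher and 7 lower) when only the 6 day 20 libraries were fitted. With the run as a covariate it called 16, the 10 above and *CG17732*, *CecA1*, *CecA2*, *Cyp6w1*, *Hsp68*, and *Sclp*. The other genes given below as called with the block over the day 20 libraries were not called by that fit. In run 2 alone it called 22 genes. *Hsc70-3*, *Gp93*, *Manf*, *Ldh*, and *Cyp309a2* were among them, but none of the olfactory or larval serum protein genes given below.

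The *w* (white) gene encodes a transporter of eye pigment precursors, and copies of it mark many fly transgenes. *w* lies on the X chromosome at 2790599 to 2796466 of the release 6 genome, inside the gene *kirre* on the other strand. *w* had 211, 190, and 180 CPM in AD heads, against 64.1, 73.1, and 77.6 CPM in WT heads. Its log2 fold change was 1.44 with an SE of 0.18 (FDR = 0.00246, edgeR). *kirre* showed a log2 fold change of 0.06, with an FDR of 1.

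*PCNA*, the sliding clamp of DNA replication, was a low-count gene with 4.84, 5.79, and 8.93 CPM in AD heads and 1.26, 1.13, and 0.635 CPM in WT heads (2R, 20261754 to 20262883). It rose by a log2 fold change of 2.67 with an SE of 0.40 (FDR = 0.00658, edgeR). The ribonucleotide reductase genes *RnrL* and *RnrS* and the replication helicase gene *Mcm5* did not pass the threshold. Their log2 fold changes were 0.09, 0.35, and 0.80.

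*cv-2* (crossveinless 2), a secreted modulator of BMP signalling, had 66.2, 59.6, and 78.5 CPM in AD heads and 40.4, 24.4, and 24.3 CPM in WT heads. It rose by a log2 fold change of 1.19 with an SE of 0.18 (FDR = 0.00658, edgeR), and the WT library of run 1 was the highest of the WT libraries. *dpp*, which encodes a fly BMP ligand, had a log2 fold change of -0.18.

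*Mp20* encodes a calponin-like muscle protein. It had 655, 665, and 703 CPM in AD heads and 278, 319, and 294 CPM in WT heads, with a log2 fold change of 1.18 and an SE of 0.20 (FDR = 0.0157, edgeR). The spread within each group was small beside this difference. *Act87E*, an actin gene, had 387, 240, and 258 CPM in AD heads, against 169, 134, and 152 CPM in WT heads. Its log2 fold change of 0.96 did not pass the threshold (FDR = 0.345, edgeR). The other muscle genes did not pass the threshold. Of 24 tested contractile genes 10 had an estimate above 0, their median log2 fold change was -0.09, and *Mhc*, the muscle myosin heavy chain, had 1041, 498, and 538 CPM in AD heads against 1418, 605, and 744 CPM in WT heads. The summed level of the 24 genes was 7513, 6146, and 7458 CPM in AD heads and 7892, 6417, and 7065 CPM in WT heads.

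**Figure D1:**
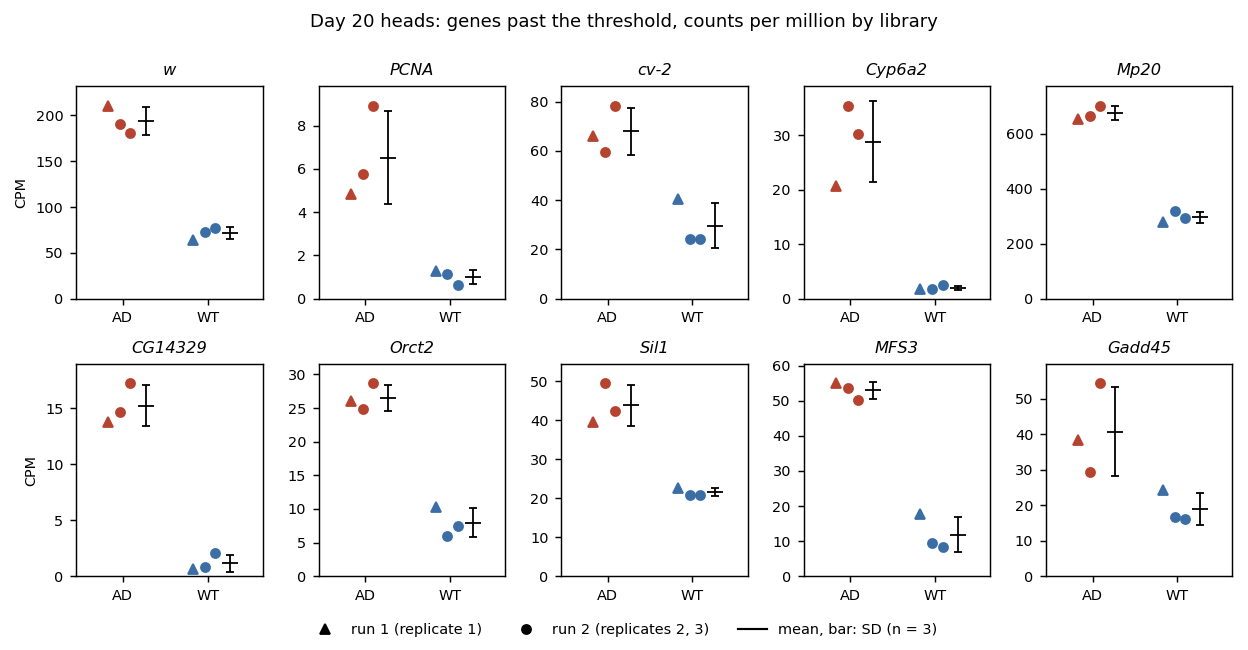
CPM (vertical axes, from 0) of the 10 genes past the threshold in AD heads (left) and WT heads (right) at day 20. Triangles are run 1 (replicate 1), circles are run 2 (replicates 2 and 3), and the black mark and bar are the mean and SD of 3 libraries. In all 10 panels every AD library lies above every WT library, and *cv-2* and *Gadd45* show the smallest gaps relative to their spread.

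The called genes also held a detoxifying enzyme and membrane transporters. *Cyp6a2*, a cytochrome P450 linked to insecticide resistance, had 20.7, 35.4, and 30.2 CPM in AD heads, against 1.87, 1.74, and 2.47 CPM in WT heads. Its fold change of 14.2 was the largest among the called genes (log2 3.83, SE 0.60, FDR = 0.00819, edgeR). The gene lies within the locus of *Epac* on the same strand, and *Epac* had a log2 fold change of 0.21. *MFS3*, a transporter of the major facilitator superfamily, had 55.0, 53.7, and 50.3 CPM in AD heads and 17.7, 9.50, and 8.39 CPM in WT heads (log2 fold change 2.15, SE 0.42). *Orct2*, a putative organic cation transporter, had 26.0, 24.8, and 28.7 CPM in AD heads and 10.3, 6.03, and 7.48 CPM in WT heads (log2 fold change 1.73, SE 0.31). Its neighbour *Orct* was at 27.2, 40.9, and 33.4 CPM in AD heads and 21.2, 21.6, and 20.7 CPM in WT heads, with a log2 fold change of 0.68 that did not pass the threshold (FDR = 0.245, edgeR). *CG14329*, whose function is not described here, had 13.8, 14.7, and 17.2 CPM in AD heads and 0.608, 0.830, and 2.05 CPM in WT heads, with a log2 fold change of 3.72.

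*Sil1*, the nucleotide exchange factor of BiP, had 39.5, 49.6, and 42.3 CPM in AD heads, against 22.7, 21.0, and 20.9 CPM in WT heads. It rose by a log2 fold change of 1.02 with an SE of 0.19 (FDR = 0.0242, edgeR). *Gadd45*, a stress-induced regulator of JNK and p38 signalling, had 38.4, 29.5, and 54.5 CPM in AD heads and 24.3, 16.8, and 16.1 CPM in WT heads. The log2 fold change was 1.09 with an SE of 0.21 (FDR = 0.0429, edgeR). With the replicate block over the 6 day 20 libraries its FDR was 0.0551, above the limit, and the other 9 genes kept their call.

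The FDR limit alone gave 16 genes, all higher in AD heads (0.153% of the genes tested). The 6 genes added to the 10 above by this rule are *P58IPK*, *CaBP1*, *sgl*, *Kr-h2*, *Ero1L*, and *bocks*. *P58IPK*, the BiP co-chaperone, had 119, 141, and 141 CPM in AD heads and 75.5, 61.1, and 66.4 CPM in WT heads. Its log2 fold change of 0.98 lay just under the size limit, with an SE of 0.15 (FDR = 0.00658, edgeR). *CaBP1*, a protein disulfide isomerase family member of the ER, had 134, 163, and 180 CPM in AD heads and 91.4, 77.2, and 76.0 CPM in WT heads (log2 fold change 0.96, FDR = 0.0157, edgeR). *Ero1L* had 71.0, 68.9, and 68.8 CPM in AD heads and 42.9, 37.6, and 38.5 CPM in WT heads (log2 fold change 0.81, FDR = 0.0429, edgeR).

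*sgl* encodes UDP-glucose dehydrogenase, which makes a sugar donor for proteoglycans. It had 93.9, 98.1, and 110 CPM in AD heads, against 56.9, 57.5, and 65.5 CPM in WT heads, and the same difference within both runs (0.72 in run 1 and 0.76 in run 2, log2). *Kr-h2* had 117, 149, and 147 CPM in AD heads and 76.8, 74.96, and 76.5 CPM in WT heads. *bocks* encodes a protein of the inner nuclear membrane, and it overlaps *P58IPK* on the opposite strand. Its log2 fold change was 0.55, and since the counting is not stated to use strand, reads from the overlap cannot be assigned to one gene.

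A list of 23 genes of ER folding and the unfolded protein response had estimates above 0 in AD heads for most of its members. Past the full threshold there was 1 member, *Gadd45*, and with an FDR under 0.05 there were 3, namely *CaBP1*, *Ero1L*, and *Gadd45*. At an unadjusted p under 0.05 edgeR gave 10 higher and 0 lower, against 350 higher and 114 lower of all 10479 genes. In 20 of the 23 the estimate was above 0, against 5246 of all 10479 genes, and the median log2 fold change was 0.36, against 0.00 over all genes. In 8 of the 23 (34.8%) every AD library lay above every WT library, against 5.11% of all genes. *P58IPK* and *Sil1* are not on the list and are not in these counts. The summed level of the list was 9076, 6587, and 6676 CPM in AD heads and 7347, 4022, and 4282 CPM in WT heads.

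The 2 largest estimates on the list belonged to the main ER chaperones, and for these the libraries differed mainly by run. *Hsc70-3* (BiP) had 2338, 958, and 938 CPM in AD heads, against 1477, 237, and 258 CPM in WT heads. Both groups were higher in run 1 than in run 2, so the groups overlapped, although the AD library was the higher one within each run. The difference was 0.66 in run 1 and 1.94 in run 2 on the log2 scale, and the fit over both runs gave a log2 fold change of 1.10 with an SE of 0.55 (FDR = 1, edgeR). With the replicate block over the 6 day 20 libraries the log2 fold change was 1.52 (FDR = 0.0301, edgeR), and *Hsc70-3* was among the 49 genes called higher.

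*Gp93*, the ER form of Hsp90, showed the same pattern, with 767, 444, and 469 CPM in AD heads and 491, 135, and 147 CPM in WT heads. Its log2 fold change was 1.12 with an SE of 0.37 (FDR = 0.578, edgeR), and 1.34 with the block over the day 20 libraries (FDR = 0.0238, edgeR). *Manf*, a secreted neurotrophic factor that also binds BiP, did not overlap between groups. It had 137, 118, and 117 CPM in AD heads and 87.6, 45.6, and 43.7 CPM in WT heads (FDR = 0.256, and 0.0154 with the same block, edgeR). *scf*, which encodes an ER calcium-binding protein and is not on the list, had 506, 182, and 199 CPM in AD heads and 399, 72.3, and 73.1 CPM in WT heads.

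Among the folding enzymes that did not pass the threshold, *Pdi* was at 589, 639, and 636 CPM in AD heads and 510, 427, and 429 CPM in WT heads, without overlap (FDR = 0.0952, edgeR). *Calr* (calreticulin) had a log2 fold change of 0.51 and *ERp60* one of 0.36. The lectin chaperone *Cnx99A* (calnexin) had one of 0.17, and its groups overlapped within run 2 as well. For ER-associated degradation, the membrane protein gene *Herp* was at 130, 107, and 112 CPM in AD heads and 94.8, 72.4, and 71.5 CPM in WT heads. *Der-1* (derlin) was at 107, 101, and 95.4 CPM in AD heads and 93.4, 69.2, and 65.3 CPM in WT heads. The ubiquitin ligase components *Hrd3* and *sip3* had log2 fold changes of 0.16 and 0.18.

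The list also holds the sensors and transcription factors of the response. *Xbp1*, the factor spliced by Ire1, had a log2 fold change of 0.29 (627, 541, and 599 CPM in AD heads, against 597, 423, and 427 CPM in WT heads). These counts do not separate the spliced from the unspliced form. *Ire1*, *PEK*, and *crc* (the fly ATF4) had log2 fold changes of 0.33, 0.19, and 0.18, and *Atf6* had one of -0.03. None of these passed the threshold. Of the genes listed as targets of crc, *Thor*, the 4E-BP translation inhibitor, had 205, 216, and 383 CPM in AD heads and 139, 175, and 183 CPM in WT heads (FDR = 0.701, edgeR). *Gfat1*, *Sesn*, and *Nmdmc* had log2 fold changes of -0.02, -0.03, and 0.06.

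Taken run by run, AD lay above WT within both runs for 16 of the 23 genes (69.6%) and below WT within both for 0. Over all tested genes these shares were 14.7% and 14.3%. The median difference of the list was 0.20 in run 1 and 0.54 in run 2 on the log2 scale, and the difference was larger in run 2 for 20 of the 23. The number of list members with an FDR under 0.05 was 3 with all libraries, 1 without AD replicate 1 or AD replicate 2, 0 without AD replicate 3, WT replicate 2, or WT replicate 3, and 8 without WT replicate 1. It was 4 with the replicate block over 24 libraries and 6 with the block over the day 20 libraries.

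**Figure D2:**
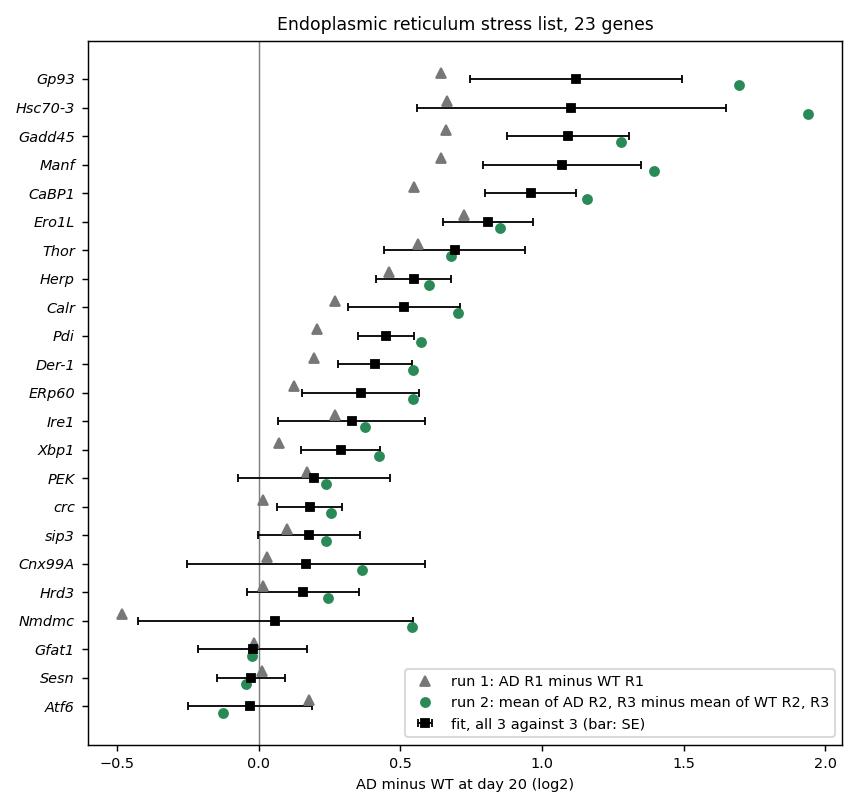
AD minus WT differences at day 20 (log2, horizontal axis) for the 23 tested genes of ER folding and the unfolded protein response. Squares with bars are the fit over 3 against 3 libraries with its SE, triangles are run 1, and circles are the mean difference of run 2. The circles lie to the right of the triangles for 20 genes, and the largest difference in run 2 is 1.94 for *Hsc70-3*.

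Several further genes of the secretory route had AD libraries above all WT libraries with an FDR of 0.0952 to 0.164, above the limit. They were chosen after their values were seen. Of other genes looked up, *Sec61beta* did not overlap between groups, while *Sec61alpha*, *BI-1*, and *shv* did. *Sec61alpha* had 165, 239, and 230 CPM in AD heads and 155, 188, and 176 CPM in WT heads. *BI-1* had 597, 380, and 382 CPM in AD heads and 497, 194, and 185 CPM in WT heads. *Gmppb*, which makes GDP-mannose for glycosylation, had 49.2, 50.5, and 58.4 CPM in AD heads and 34.6, 33.2, and 29.1 CPM in WT heads (FDR = 0.0952, edgeR). *Syx18*, a syntaxin of ER membrane fusion, had 37.8, 39.5, and 35.7 CPM in AD heads and 29.5, 27.5, and 27.0 CPM in WT heads (FDR = 0.0952, edgeR). *meigo*, an ER nucleotide sugar transporter of the SLC35 family, had 62.6, 85.9, and 81.6 CPM in AD heads and 44.2, 38.8, and 50.8 CPM in WT heads (FDR = 0.126, edgeR). *Fic*, the enzyme that AMPylates BiP, had 29.8, 33.1, and 38.3 CPM in AD heads and 24.3, 23.3, and 26.6 CPM in WT heads (FDR = 0.164, edgeR).

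Cytosolic chaperones also had estimates above 0 for most members, without a gene past the threshold. Of 23 heat shock and chaperone genes 19 had an estimate above 0, 5 had an unadjusted p under 0.05 and all of these were higher (350 higher and 114 lower of all 10479 genes), and the median log2 fold change was 0.37. Within both runs 14 of the 23 (60.9%) lay higher in AD heads and 0 lower, against 14.7% and 14.3% of all genes. *Hsp68*, a stress-inducible Hsp70, had 90.1, 33.0, and 78.8 CPM in AD heads and 30.7, 15.5, and 17.8 CPM in WT heads (log2 fold change 1.65, FDR = 0.164, edgeR). It was called with the block over the day 20 libraries (FDR = 0.0053, edgeR). *Hsp27*, a small heat shock protein, had 16.9, 9.46, and 35.7 CPM in AD heads and 10.3, 7.39, and 5.36 CPM in WT heads. *Hsp70Bc* and its copies are nearly identical, so their counts may be shared between copies in an uncertain way. *Hsp83*, the cytosolic Hsp90, had a log2 fold change of 0.21. *ref(2)P*, the fly p62 that links ubiquitinated protein to autophagy, had 409, 379, and 437 CPM in AD heads and 298, 281, and 278 CPM in WT heads, without overlap (log2 fold change 0.52, FDR = 0.0841, edgeR). Of 38 proteasome genes 30 had an estimate above 0, with a median log2 fold change of 0.07. Their median difference was -0.02 in run 1 and 0.11 in run 2.

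Among 77 cytochrome P450 genes 1, *Cyp6a2*, passed the threshold, and at an unadjusted p under 0.05 edgeR gave 8 higher and 1 lower. Over all 10479 genes these were 350 and 114. AD libraries lay above all WT libraries for 8 of the 77 (10.4%, against 5.11% of all genes) and below them for 2 (2.60%, against 3.81%). *Cyp6w1* had 187, 324, and 335 CPM in AD heads and 92.6, 103, and 99.7 CPM in WT heads (log2 fold change 1.52, FDR = 0.0894, and 0.00322 with the block over the day 20 libraries, edgeR). *Cyp309a2* had 31.0, 13.97, and 7.89 CPM in AD heads and 9.04, 3.02, and 2.05 CPM in WT heads. Its groups overlapped, with a difference of 1.76 in run 1 and 2.03 in run 2 (log2), and it was called with the same block (FDR = 0.00146, edgeR). Of 32 glutathione S-transferase genes 26 had an estimate above 0, with a median of 0.12. Their median difference was -0.10 in run 1 and 0.21 in run 2 (log2), so the runs differed in sign. *GstD2* had 5.65, 3.60, and 35.5 CPM in AD heads and 3.13, 3.77, and 3.10 CPM in WT heads, so that its difference came from AD replicate 3. *Ldh*, lactate dehydrogenase, had 170, 308, and 321 CPM in AD heads and 58.8, 19.7, and 25.4 CPM in WT heads (log2 fold change 2.94, FDR = 0.0841, and 0.0194 with the block, edgeR).

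Some olfactory genes expressed in the antenna had large positive estimates in AD heads, with a wide spread between libraries. They were singled out after their values were seen, from the genes called with the block over the day 20 libraries. *Obp83b* and *Obp83a* encode odorant-binding proteins of the antenna. *Obp83b* had 13.7, 34.4, and 55.4 CPM in AD heads and 2.13, 7.32, and 8.82 CPM in WT heads (log2 fold change 2.51, FDR = 0.862, and 0.00018 with the block, edgeR). *Obp83a* had 19.8, 58.1, and 102 CPM in AD heads and 3.65, 14.4, and 24.5 CPM in WT heads. *Os-C*, an antennal olfactory-specific gene, had 27.1, 53.4, and 70.8 CPM in AD heads and 7.26, 11.1, and 13.97 CPM in WT heads. *lush*, which encodes the odorant-binding protein needed for the response to the pheromone cVA, had 11.1, 21.2, and 23.04 CPM in AD heads and 5.91, 6.26, and 5.995 CPM in WT heads. *Orco*, the co-receptor shared by the odorant receptors, had 10.7, 12.99, and 19.7 CPM in AD heads and 3.00, 5.05, and 5.78 CPM in WT heads.

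None of these passed the threshold without the block over the day 20 libraries. In run 2 alone the FDR of these genes ran from 0.32 in *lush* to 0.48 in *Orco* (edgeR). For *a5*, *Obp19a*, *Obp28a*, *Obp59a*, and *Obp84a*, also called with the block, it ran from 0.40 in *Obp59a* to 0.64 in *Obp28a*. *Obp50e*, another gene called with the block, had an FDR of 0.60 in run 2 alone (edgeR). AD exceeded WT within both runs for *Obp83a*, *Obp83b*, *Os-C*, *a5*, *lush*, *Orco*, *Obp19a*, *Obp28a*, *Obp59a*, and *Obp84a*. Over all tested genes this held for 14.7%. These genes were picked from the calls with the block, which compares libraries of the same number. Their agreement within the runs was thus largely set by that choice and is no separate evidence. The differences of the olfactory genes picked from the block ran from 0.89 in *lush* to 3.00 in *a5* in run 1, on the log2 scale. The 34 tested odorant-binding protein genes as a whole had a median log2 fold change of 0.20, with 24 estimates above 0, 3 higher and 2 lower at an unadjusted p under 0.05. The 47 tested chemoreceptor genes had a median of 0.15, with 31 above 0, 4 higher and 0 lower. Over all 10479 genes the counts at this p were 350 higher and 114 lower. *Obp99d* was the lowest of the odorant-binding genes, at 1.498, 0.706, and 0.797 CPM in AD heads and 6.08, 4.30, and 2.61 CPM in WT heads. The amount of antennal tissue in each library is not known, and its part in these values was not tested.

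2 storage protein genes of the fat body had negative estimates. *Lsp2*, a larval serum protein gene, had 121, 23.9, and 7.89 CPM in AD heads and 482, 88.8, and 33.6 CPM in WT heads. The groups overlapped, while the difference was -1.99 in run 1 and -1.98 in run 2 (log2). *Lsp1beta* had 102, 68.5, and 25.9 CPM in AD heads and 324, 162, and 94.9 CPM in WT heads. Both were called lower with the block over the day 20 libraries (FDR = 0.000156 and 0.00114, edgeR), and *tobi*, *Obp99b*, *TotA*, *Obp99d*, and *CG16926* were the other 5 genes called lower there. In run 2 alone *Lsp2* and *Lsp1beta* were not called (FDR = 0.304 and 0.432, edgeR), nor were they with the run as a covariate. Of 28 fat body genes tested, 17 had an estimate above 0 and the median was 0.08, with a median difference of -0.19 in run 1 and 0.15 in run 2. *apolpp*, the lipophorin precursor, had 1445, 2767, and 1703 CPM in AD heads and 1778, 2081, and 1519 CPM in WT heads.

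**Figure D3:**
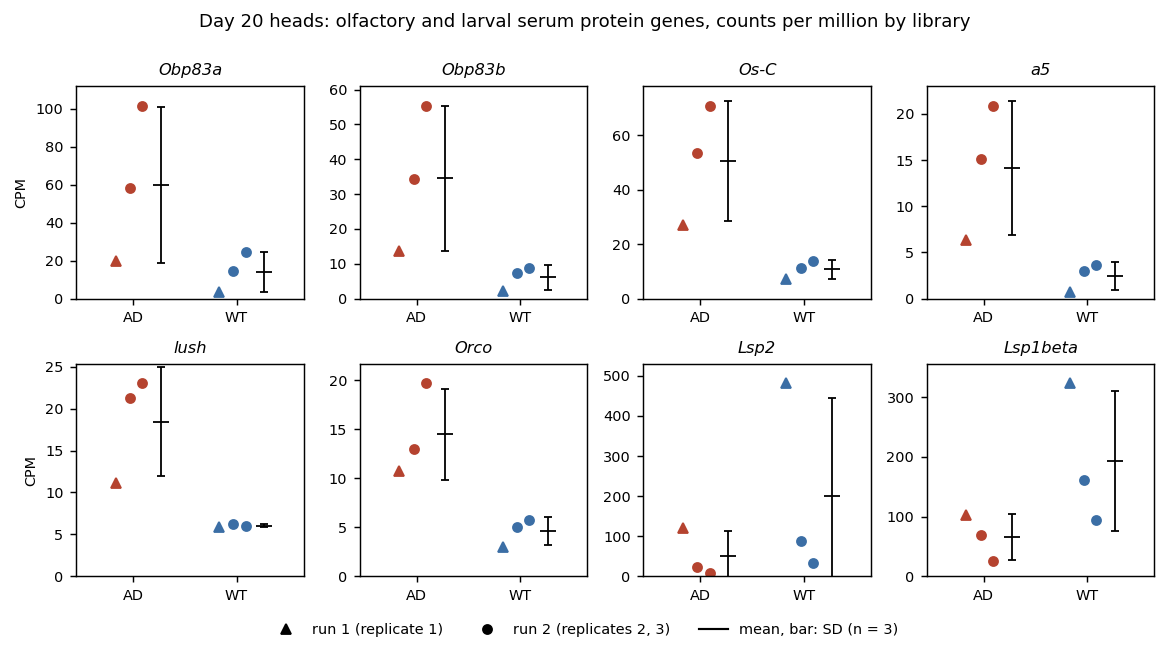
CPM (vertical axes, from 0) of 6 olfactory genes and 2 larval serum protein genes in AD heads (left) and WT heads (right) at day 20, with triangles for run 1, circles for run 2, and the mean and SD of 3 libraries in black. The olfactory genes are higher in AD heads within each run, by 1.88 in run 1 and 2.29 in run 2 (log2) for *Os-C*, and the serum protein genes are lower within each run. All of these genes were called with the block over the day 20 libraries, which favours genes whose difference is alike in both runs.

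The 14 AMP genes had no member past the threshold at day 20. Their median log2 fold change was 0.69, with 13 estimates above 0, 4 higher and 0 lower at an unadjusted p under 0.05 (edgeR). Over all 10479 genes 5246 estimates were above 0, and 350 were higher and 114 lower at this p. The runs differed here, with a median difference of -0.07 in run 1 and 1.36 in run 2. *CecA1* had 150, 161, and 163 CPM in AD heads and 95.7, 40.7, and 23.8 CPM in WT heads (log2 fold change 1.56, FDR = 0.513, edgeR), and *CecA2* had 56.6, 79.1, and 86.0 CPM in AD heads and 38.3, 17.4, and 10.7 CPM in WT heads (1.73, FDR = 0.266, edgeR). These neighbouring genes are close copies, so reads may be split between them. With the run as a covariate edgeR called *CecA1* and *CecA2*, and DESeq2 called *CecA2*. Over the run 2 libraries alone edgeR called *CecA1*, *CecA2*, and *CecC* (FDR = 0.0105, 0.0143, and 0.0402), while with the block over the day 20 libraries it called none of these (FDR = 0.0602, 0.0806, and 0.209). *AttD* had a log2 fold change of -0.27.

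Outside the AMP genes, *LysS*, a lysozyme gene, had 25.6, 76.4, and 97.5 CPM in AD heads and 10.3, 6.03, and 2.12 CPM in WT heads (log2 fold change 3.40, FDR = 0.245, edgeR). *PGRP-SB1*, a secreted peptidoglycan recognition protein, was at the same level in both run 1 libraries (379 CPM in the AD one and 377 CPM in the WT one). In run 2 it had 564 and 418 CPM in AD heads, against 236 and 134 CPM in WT heads. The signalling genes of the Toll, IMD, and JAK-STAT pathways had a median of 0.01 over 31 genes. The 2 with the smallest p were *Socs36E*, a JAK-STAT feedback inhibitor (log2 fold change 0.54, FDR = 0.353, edgeR), and *pirk*, an IMD feedback inhibitor (0.50, FDR = 0.4, edgeR). *TotA*, a stress-induced humoral peptide, had 143, 163, and 326 CPM in AD heads and 596, 457, and 503 CPM in WT heads (log2 fold change -1.30, FDR = 0.997, edgeR).

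Of 31 synaptic and neuronal marker genes 7 had an estimate above 0 and the median was -0.11, with a difference of 0.04 in run 1 and -0.16 in run 2. *Vmat*, the vesicular monoamine transporter, had 239, 234, and 224 CPM in AD heads and 276, 268, and 298 CPM in WT heads (log2 fold change -0.27, FDR = 0.925, edgeR). *Trhn*, the neuronal tryptophan hydroxylase of serotonin synthesis, had a log2 fold change of -0.31, and *5-HT1B*, a serotonin receptor, one of -0.57. For transmitter receptors 6 of 24 were above 0, with a median of -0.13, and the median difference was 0.07 in run 1 and -0.17 in run 2. The active zone gene *brp* had 251, 124, and 107 CPM in AD heads and 269, 149, and 159 CPM in WT heads. Glial markers had a median of -0.01 over 19 genes, and *repo*, the glial transcription factor, had 58.7, 66.5, and 53.02 CPM in AD heads and 67.5, 73.5, and 74.8 CPM in WT heads. Phototransduction genes had a median of -0.03 over 35 genes. None of the genes in these lists passed the threshold.

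Among genes that act on amyloid or tau, 18 were tested and 0 passed the threshold. *Nep1*, a neprilysin-like peptidase, had 35.2, 36.6, and 38.3 CPM in AD heads and 45.5, 57.5, and 58.7 CPM in WT heads (log2 fold change -0.55, FDR = 0.391, edgeR). *Nep7*, another member of this family, had 19.6, 19.1, and 24.3 CPM in AD heads and 13.3, 13.4, and 10.5 CPM in WT heads (0.75, FDR = 0.45, edgeR). The fly homologues of the amyloid precursor protein and of tau, *Appl* and *tau*, had log2 fold changes of -0.12 and -0.13. For the caspase gene *Strica* the level was 13.8, 4.59, and 5.98 CPM in AD heads and 2.04, 2.72, and 1.199 CPM in WT heads (2.03, FDR = 0.137, edgeR), and *Drice*, the main effector caspase gene, had a log2 fold change of 0.38. Over 30 genes of cell death and JNK signalling the median was 0.06.

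No ribosomal or mitochondrial gene passed the threshold. All 87 cytosolic ribosomal protein genes tested had an estimate above 0, with a median log2 fold change of 0.15. The median difference was -0.02 in run 1 and 0.22 in run 2, so the 2 runs differed in sign. The 11 tested mitochondrially encoded genes were all above 0, with a median of 0.29, and 8 of the 11 (72.7%) were higher within both runs, against 14.7% of all genes. Nuclear genes of oxidative phosphorylation had 16 of 70 estimates above 0 and a median of -0.07, with -0.24 in run 1 and -0.01 in run 2. Genes of one list share their libraries and scaling, so these counts are not independent observations.

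**Figure D4:**
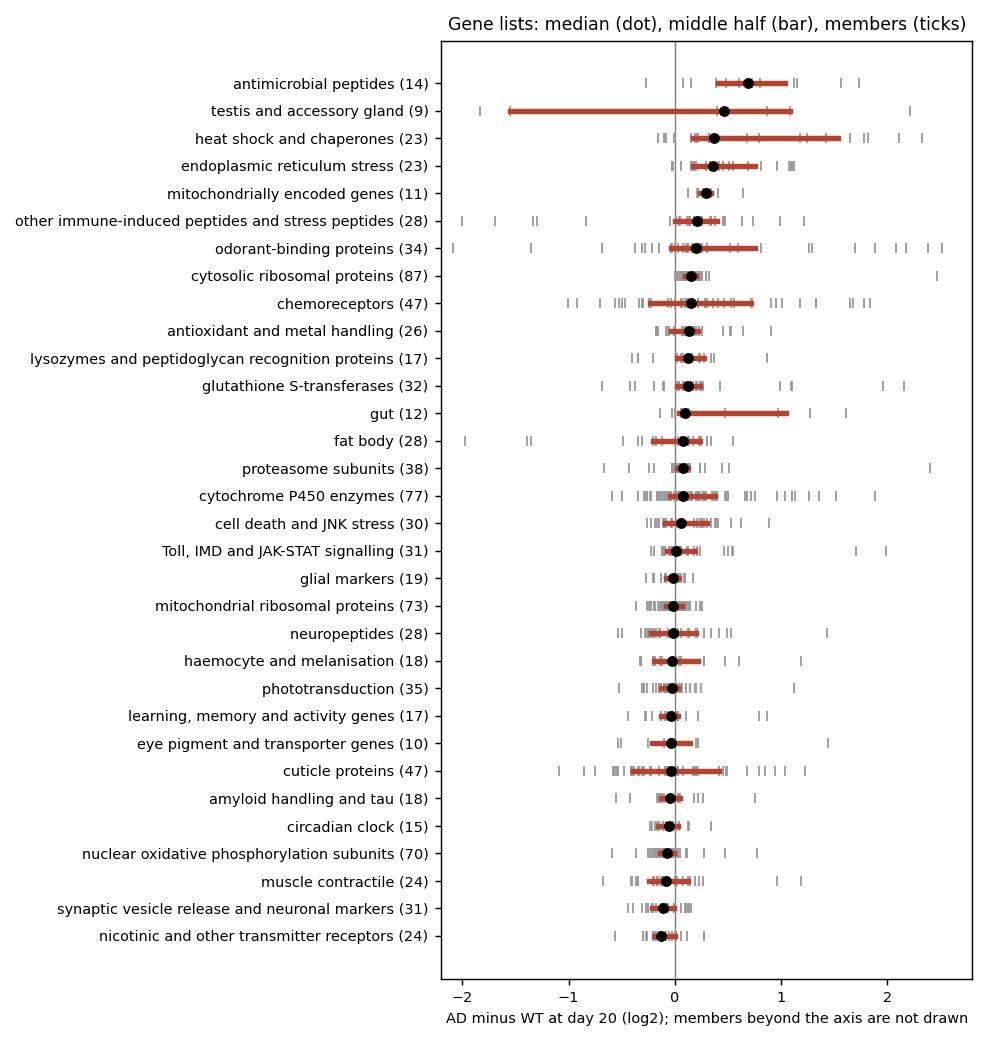
AD minus WT differences at day 20 (log2, horizontal axis) for 32 gene lists, ordered by their median, with the number of tested genes in parentheses. Dots are medians, bars span the interquartile range, and ticks are single genes. The ER stress list (median 0.36) and the heat shock list (0.37) lie to the right of 0 with most members, and the neuronal list (-0.11) lies to the left.

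No gene was lower in AD heads past the threshold. Of the genes that lay below all WT libraries with a log2 fold change under -1, those with the smallest p by edgeR were *Obp99d* (-2.09), *ppk29* (-1.28), *CG6118* (-2.71), *CG32750* (-1.45), *TotB* (-3.53), and *CG15506* (-1.16), with an FDR of 0.345 to 0.855. Most of these were counted at low levels. *ppk29*, a sodium channel subunit gene, had 0.579, 0.424, and 0.638 CPM in AD heads and 0.956, 1.89, and 1.199 CPM in WT heads. *CG15506* had 1.43, 2.33, and 1.99 CPM in AD heads and 3.13, 6.03, and 3.67 CPM in WT heads. In the higher direction the corresponding genes were *Sclp*, *CG17732*, *Ldh*, *Cyp6w1*, *Strica*, and *Spn55B*. *Sclp* had 18.8, 23.2, and 24.7 CPM in AD heads and 8.91, 8.07, and 9.10 CPM in WT heads (log2 fold change 1.35, FDR = 0.0504, and 0.00502 with the block over the day 20 libraries, edgeR). *CG17732* had 5.59, 4.31, and 5.18 CPM in AD heads and 0.174, 0, and 0.212 CPM in WT heads (FDR = 0.0549, and 0.0049 with that block, edgeR). *Spn55B*, a serpin gene, had 30.0, 23.4, and 62.2 CPM in AD heads and 18.3, 15.9, and 15.2 CPM in WT heads.

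The AD minus WT differences were then set beside those of the other ages. All day 30 libraries are from run 2, while replicate 1 of both genotypes at days 3, 10, and 20 is from run 1. Age and run are therefore partly mixed in these comparisons, and the part of the run was not tested. The AD library of day 30 replicate 3 had 89.7 CPM of *w*, against 180 and 184 CPM in the other AD libraries of that age and 81.8 to 89.3 CPM in WT, so for *w* it goes against its label. *Cyp6a2* in that library was also near WT, at 3.02 CPM, against 33.1 and 40.6 CPM in the other AD libraries and 1.91 to 2.96 CPM in WT. *CG14329*, *Orct2*, and *Sil1* in that library lay within the WT range, at 1.049, 7.868, and 21.64 CPM. WT had 0.917 to 1.293, 7.282 to 8.634, and 18.92 to 21.73 CPM. *MFS3* was just above WT, at 15.54 CPM (10.41 to 15.09 CPM in WT). *PCNA* and *Mp20* lay between the WT and the other AD libraries, at 2.426 and 447.9 CPM. By contrast, *cv-2*, *Gadd45*, and *Pdi* in it were at or near the AD level. *cv-2* had 60.7 CPM (26.8 to 32.6 CPM in WT). *Gadd45* had 49.7 CPM (20.5 to 27.3 CPM in WT), and *Pdi* had 756 CPM (488 to 503 CPM in WT). Day 30 values are therefore given with and without the library labelled AD day 30 replicate 3. A test of whether the day 20 difference departs from the mean of the differences at days 3, 10, and 30 gave 0 genes (lowest FDR = 1, edgeR) and 130 at an unadjusted p under 0.05. DESeq2 gave 1 gene, *CG15547*, which was named after its values were seen. So no gene's difference was shown by edgeR to be particular to day 20.

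At each age in turn the ER list had median log2 fold changes of 0.09, 0.16, 0.36, and 0.36 from day 3 up to day 30 (the last 0.43 without the library labelled AD day 30 replicate 3). Estimates were above 0 for 17, 18, 20, and 20 of its 23 genes at these ages. Day 30 has run 2 libraries only. At day 20 the median difference of the list was 0.20 in run 1 and 0.54 in run 2 (log2), so the step to day 30 mixes age with run. Days 3, 10, and 20 share the same makeup of runs. *P58IPK* had log2 fold changes of 0.37, 0.79, 0.98, and 0.76 (0.89 without that library). *CaBP1* had 0.22, 0.85, 0.96, and 0.75 (0.91 without it), and *Ero1L* had 0.24, 0.83, 0.81, and 0.80 (0.99 without it). *Hsc70-3* had 0.66, 1.32, 1.10, and 1.47 (1.79 without it). Its level in the run 2 libraries of AD heads was 426 and 502 CPM at day 3, 720 and 723 CPM at day 10, and 958 and 938 CPM at day 20. In WT heads these were 266 and 262 CPM, 292 and 233 CPM, and 237 and 258 CPM.

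*Gadd45* had log2 fold changes of 0.09, 0.11, 1.09, and 0.98 (0.93 without that library), and *Mp20* had 0.21, 0.45, 1.18, and 1.10 (1.36 without it). *PCNA* had 0.00, 1.40, 2.67, and 1.12 (1.36 without it), and among the 10 called genes it had the smallest p in the test of day 20 against the other ages (FDR = 1, edgeR). Its level in WT heads was 0.635 to 1.26 CPM at day 20 and 0.990 to 2.27 CPM at the other ages. *Cyp6a2* had 3.99, 4.36, 3.83, and 3.42 (3.95 without it), and *w* had 1.42, 1.77, 1.44, and 0.82 (1.09 without it). *Obp83b* had -1.69, 1.18, 2.51, and 0.87 (1.44 without it), with 0.228 to 1.096 CPM in AD heads and 1.53 to 2.57 CPM in WT heads at day 3. At day 10 *Sil1*, *MFS3*, and *CG14329* had log2 fold changes of 1.02, 2.70, and 3.84 (FDR = 0.0234, 0.0122, and 0.0191, edgeR). These genes, *w*, and *Cyp6a2* thus passed the threshold at day 10 as well. The other called genes did not, with *cv-2* at 0.91 and *Orct2* at 1.29.

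**Figure D5:**
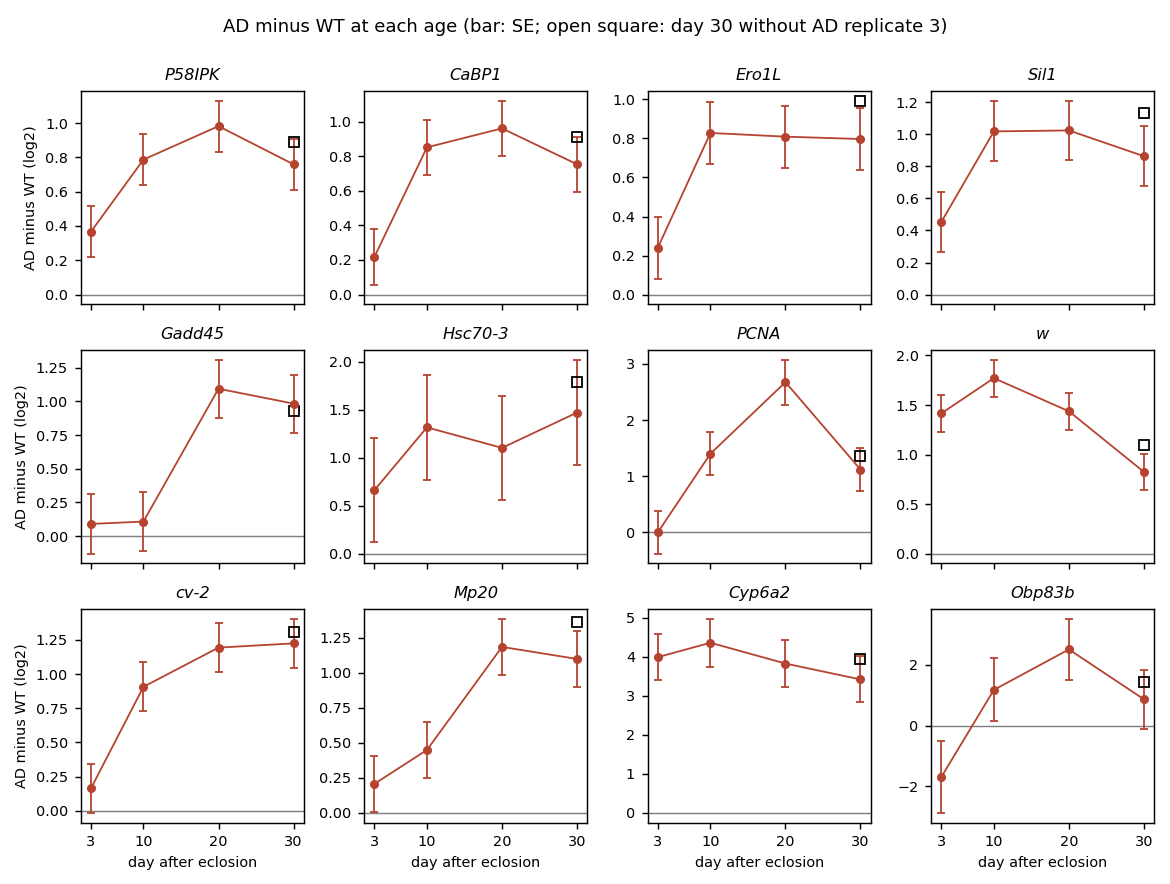
AD minus WT differences (log2, vertical axes) against age in days after eclosion (horizontal axes) for 12 genes. Circles with bars are the estimate and its SE, and open squares are day 30 without AD replicate 3. The ER genes *P58IPK*, *CaBP1*, *Ero1L*, and *Sil1* have smaller estimates at day 3 than at day 20. At day 10 *Sil1* (1.02) and *Ero1L* (0.83) are already near their day 20 estimates (1.02 and 0.81). *Gadd45* is at 0.11 at day 10 and 1.09 at day 20, and *Cyp6a2* is between 3.42 and 4.36 at all ages.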

How the data were processed

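Heads of male flies were sequenced as poly-A selected mRNA, with 3 libraries in each of 8 groups of genotype and age. The authors filtered the reads with SOAPnuke, mapped them with HISAT2 2.0.4 to release 6 of the fly genome and estimated abundance with RSEM. They deposited expected counts, 1 estimate per gene and library, and beside them FPKM values, which the authors derived from the same estimates by gene length and library size. A gene that was not listed for a library was taken as 0. Genes added by the authors under their own numbers were left out of the fits, and their numbers and lengths marked 2 processing runs (6 and 18 libraries). Symbols and positions came from the BDGP 6.54 annotation (Ensembl 115), in which 13550 of 13700 identifiers were found. No sequence was used.

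Rounded expected counts from 24 libraries in 8 groups were tested by the quasi-likelihood method of edgeR 4.0.16 under R 4.3.3, with TMM scaling, the filterByExpr filter, and no covariate. The limits, a Benjamini-Hochberg FDR under 0.05 and an absolute log2 fold change over 1, follow the study, which names DESeq2. The spread is thus shared over all groups. The F statistic of each estimate gave its SE. For differences within a run, a prior count of 2 was added before taking log2 CPM. The members and gene lists were chosen with earlier results of these data known, and the lists were written from general knowledge. Genes named are *w*, all those past the threshold, up to 6 in each direction with p smallest, no overlap and a log2 fold change beyond 1, and the 2 members of each list with the smallest p; others are said to be chosen after their values were seen or come from the lists or markers. The replicates are separate samples by their labels, and no source used here says whether they are separate cultures or crosses, so p-values measure the spread between these libraries. Counting error covers only part of the error, and no source used here mentions molecular identifiers.

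Alternatives were RLE scaling, no filter, a mean of at least 10 counts, the 6 day 20 libraries alone, the replicate number as a block, the run as a covariate, run 2 alone, DESeq2 1.42.0, limma 3.58.1 on log2(FPKM + 1) and log2(FPKM + 0.1), the FDR limit alone, and leaving out libraries. Pairing rests on replicate numbers in the labels, and no source describes it. Deviations of same-numbered AD and WT libraries from their group means correlated across genes at 0.805, 0.481, and 0.378. Within run 2 the replicate 2 minus replicate 3 differences of AD and WT correlated at -0.0061, so the block carries mainly the run.

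The fits were tested on simulated counts of 10479 genes with 200 changed in AD heads at day 20 and no run effect. The changed genes were drawn from those with higher counts, all genes had the same dispersion, and found means an FDR under 0.05 alone. With edgeR 18% of genes changed by 1 (log2) and 93% of those changed by 2 were found, with 2 wrong calls among 113. These shares do not cover genes of low counts such as *PCNA*, nor the added limit on the fold change. Small changes are therefore often missed at this size. Some genes are not reported here.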

Additional observations from a re-analysis of the deposited data

Results flagged for a closer look

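Genes that the authors had added to the annotation took a larger share of the counts in AD heads at day 20, in data that no comparison above used. Their share was 1.001%, 1.098%, and 1.15% in AD heads (mean 1.08%) and 0.749%, 0.776%, and 0.762% in WT heads, without overlap and in the same direction within each run. At day 3 the shares were 0.287% to 0.587% in AD heads and 0.334% to 0.505% in WT heads, at day 10 they were 0.455% to 0.840% and 0.403% to 0.684%, and at day 30 they were 1.04% to 1.13% and 0.899% to 0.977%. In run 2 at day 20, 7 of these genes were described as *copia* elements by the authors' annotation, and they made up 0.0372% and 0.0350% of the counts in AD heads and 0.0185% and 0.0211% in WT heads. Genes so described were also higher in AD heads in run 2 at day 3 (0.0140% and 0.0140%, against 0.0098% and 0.0088%). At day 10 their shares were 0.0239% and 0.0254%, against 0.0128% and 0.0110%. At day 30 the groups overlapped, at 0.0416% to 0.0761% in AD heads and 0.0338% to 0.0463% in WT heads. Of the 82 added genes with a mean of at least 10 CPM in run 1, 56 were above and 26 below WT in the single pair of libraries (median log2 ratio 0.19). Of the 105 such genes in run 2, 31 were above and 28 below WT in both AD libraries (median log2 ratio -0.02). The numbering differs between the runs, so single genes could not be followed across them.

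Among the genes named by the rule under the processing of the data, 4 had every AD library above every WT library at day 20 and below them at another age. The other tested genes were not searched for this, so no share over all genes can be given. The difference between day 20 and that single age was not tested. Day 20 against the mean of days 3 and 10 differed by 2.85 for *CecA1*, 1.48 for *PGRP-SB1*, 0.73 for *pirk*, and 2.26 for *RpS10a* (log2), with an FDR of 0.353, 0.374, 0.876, and 1 by edgeR, and the test against all 3 other ages gave an FDR of 1 for each. *CecA1* had a log2 fold change of 1.56 at day 20 and -2.06 at day 10, when it had 12.04, 6.82, and 10.3 CPM in AD heads and 77.6, 19.4, and 25.1 CPM in WT heads. *PGRP-SB1* had 0.86 at day 20, -0.67 at day 3 and -0.56 at day 10. Its separation at day 20 was narrow, with 378.5 CPM in AD replicate 1 and 377.1 CPM in WT replicate 1. *pirk* had 0.50 at day 20 and -0.37 at day 3, when its highest AD library was at 10.18 CPM and its lowest WT library at 10.32 CPM. *RpS10a*, a ribosomal protein gene counted at 0.217 to 2.47 CPM at day 20, had 2.46 at day 20 and -2.14 at day 3. At day 3 it had few counts, at 0.076 to 0.235 CPM in AD heads and 0.275 to 1.146 CPM in WT heads.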

How the results depend on the processing

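The 10 calls at day 20 were 10 with RLE scaling, 8 without a filter, 10 with a mean of at least 10 counts, 11 with the replicate block over 24 libraries, 9 with limma on either FPKM scale, and 12 without the library labelled AD day 30 replicate 3. They were 3 with the 6 day 20 libraries alone, 56 with the replicate block over these 6, 16 with the run as a covariate, 22 in run 2 alone, 24 with DESeq2, and 16 by the FDR limit alone. Leaving out 1 day 20 library gave 1 to 20. No alternative except the block over 6 libraries called a gene lower. The test against the other ages gave 0 genes under all alternatives run for it except DESeq2, which gave 1. The ER list members with an FDR under 0.05 were 3, and under alternatives chosen after seeing the data 1 without a filter, 0 with the 6 libraries alone, 6 with the block over these 6, 7 in run 2 alone, 6 with DESeq2, 1 with limma on either scale, and 0 to 8 on leaving out 1 day 20 library. Over all named genes and alternatives, 1316 values kept their side of the threshold, 61 lost it, 42 gained it, and 1 lost its sign. This was the log2 fold change of Mst98Cb, a gene counted at day 20 in AD replicate 1 only, which ran from 0 to 4.13 on leaving out 1 library. Of the list medians 429 moved by less than 1 SD and 19 by more. The cause of these changes was not tested. Counting error is relatively larger for genes of few CPM such as *PCNA*.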
